A study of Mus musculus with 6 samples.

Results

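The genes of pyruvate dehydrogenase and the tricarboxylic acid (TCA) cycle were followed in the mouse tibialis anterior, a muscle of the shin in which fast fibres prevail. They are 39 of the 41025 genes measured in each library, chosen by symbol through their Ensembl IDs: 7 of pyruvate entry, 7 that set or remove the inhibitory phosphates of the complex, 15 cycle enzymes and 10 of the malate-aspartate shuttle and side reactions. The tissue came from C57BL/6 mice aged 8 weeks, in 3 libraries labelled Mettl21e knockout and 3 labelled wild type. Mettl21e encodes a muscle-enriched protein methyltransferase. The labels name no allele, promoter, Cre driver or other agent for the knockout, and no treatment for either group. Replicates are called biological, but separate mice are not mentioned, and p-values therefore measure only how these libraries scatter, which may be technical.

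Pyruvate made by glycolysis enters mitochondria through a carrier of the inner membrane, and the pyruvate dehydrogenase complex turns it into acetyl-CoA. Kinases switch the complex off by phosphorylating its catalytic subunit and phosphatases switch it on again, so that a muscle can choose between glucose and fatty acids. The cycle then oxidises acetyl-CoA to carbon dioxide and passes electrons to the respiratory chain, while the malate-aspartate shuttle carries electrons from the cytosol inwards. Fast muscle burns glucose largely to lactate and holds fewer mitochondria than slow or type IIa muscle.

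The libraries held 8476591 to 10435095 fragments where labelled knockout (KO) and 8842349 to 10856669 where labelled wild type (WT). Values were deposited as FPKM, which are fragments scaled by gene length and library total. Transcripts of the mitochondrial genome took 15.2% to 19.8% of the fragments in KO-labelled libraries and 15.5% to 17.3% in WT-labelled ones. The fibre genes Acta1, Ckm, Mylpf, Tnnt3 and Myh4 summed to 56101.6 to 59420.8 FPKM in KO-labelled and 58467.8 to 61528.4 FPKM in WT-labelled libraries. Of the 2 liver genes, Apoa1 was at 0 in all 6 libraries. Alb had 0.229, 0.32 and 0 FPKM in KO-labelled libraries 1, 2 and 3, against 0.103, 0 and 0 FPKM in WT-labelled libraries 1, 2 and 3. Mettl21e itself had 1.64, 1.45 and 1.88 FPKM in KO-labelled libraries 1, 2 and 3, against 2.46, 0.309 and 1.23 FPKM in WT-labelled libraries 1, 2 and 3. The transcript was thus not lower under the knockout label (exact two-sided permutation test, p = 0.7, with 0.1 as the smallest p that this design can give). Which bases the knockout removes is not stated by the labels, and a whole-gene value checks a label only where transcript is lost. Every direction given here therefore follows the labels alone.

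No gene of pyruvate entry, its regulation or the cycle differed between the labels past the test. Differences were tested with limma on log2(FPKM + 1) over the 11383 genes averaging at least 1 FPKM, and p-values were adjusted over all of them by the Benjamini-Hochberg method with a threshold of 0.05. Of the 39 genes 38 entered the test, and Pdk3 lay under the filter. At an adjusted p under 0.05, 0 of the 38 were called, beside 0 of all 11383 (0%), and limma voom on recovered fragments likewise called 0. The smallest adjusted p among the 38 genes was 0.988, and over all tested genes it was 0.29. By unadjusted p under 0.05, 1 of the 38, Pcx, was higher in KO-labelled libraries, where 1.28% of all tested genes were. Likewise 1, Idh2, was lower, where 3.31% were. Both shares rest on a single gene. The count with an unadjusted p under 0.05, 2 of the 38 here beside 523 of all 11383, moved with the setting. It was 7 after quantile normalization (544 over all) and 3 with voom (458 over all). Without KO-labelled library 1 it was 0 (667 over all), and without WT-labelled library 2 it was 0 (356 over all).

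Most differences were small and positive. The log2 difference (KO-labelled minus WT-labelled) was above 0 for 25 of the 38 genes and below 0 for 13, with a median of 0.03, beside 4933 above and 6450 below 0 and a median of -0.02 over all tested genes. This split moved with scaling, and so did that of all tested genes. It was 35 to 3 after subtraction of library medians (6460 to 4923 over all tested genes). After quantile normalization it was 31 to 7 (6153 to 5230 over all), and with voom 29 to 9 (5640 to 5743 over all). All 3 KO-labelled values lay above all 3 WT-labelled values for 5 of the 38 genes (13.2%), beside 3.84% of all tested genes. These were Idh3a, Idh3g, Sdha, Me3 and Idh1. The 3 KO-labelled values lay below all WT-labelled values for 2 (5.26%), Idh2 and Mdh1, beside 5.64% of all tested genes, a share near that background. In whole muscle, fewer cells of a type and less RNA per cell cannot be told apart in any of these values.

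**Figure D1:**
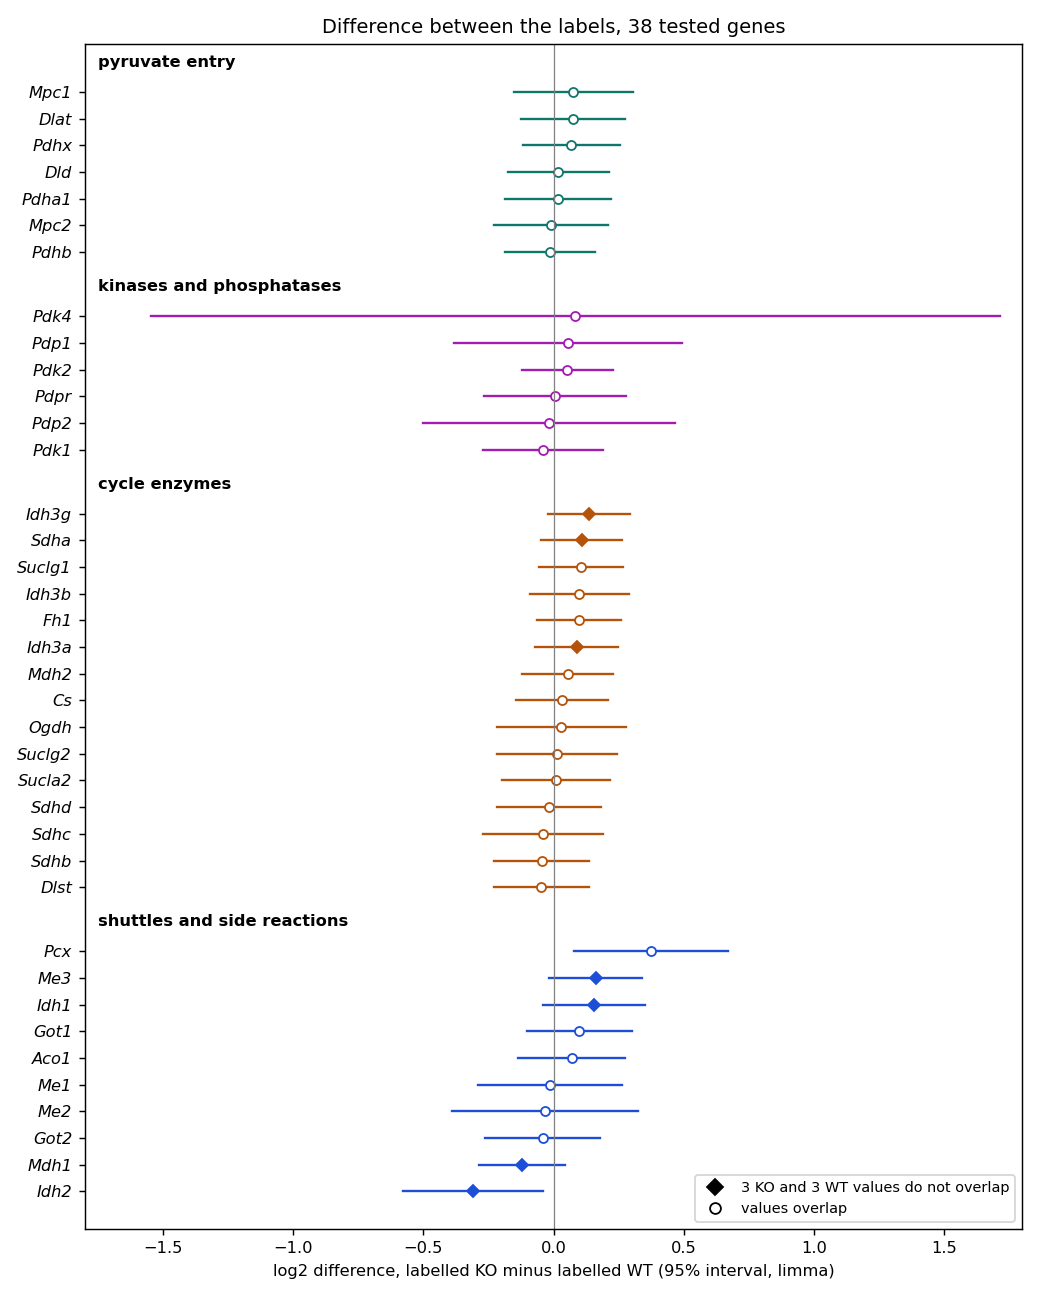
Log2 difference of each of the 38 tested genes, KO-labelled minus WT-labelled (horizontal axis, log2(FPKM + 1) scale), with 95% intervals from limma and genes ordered by role; filled diamonds mark genes whose 3 values per label do not overlap. The intervals of Pcx (0.08 to 0.67) and Idh2 (-0.58 to -0.04) alone leave out 0, and that of Pdk4 (-1.55 to 1.71) is by far the widest.

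Summed over all 39 genes, the level was 10749.2 ± 238 FPKM in KO-labelled and 10592.3 ± 364 FPKM in WT-labelled libraries (SD, n = 3 each), a difference smaller than either SD. Of the 38 tested genes 22, 16 and 26 lay above their own mean over the 6 libraries in KO-labelled libraries 1, 2 and 3, against 22, 12 and 13 in WT-labelled libraries 1, 2 and 3. The WT-labelled libraries 2 and 3 were thus low for most of these genes, while WT-labelled library 1 matched KO-labelled library 1. Over all tested genes WT-labelled libraries 2 and 3 ran the other way, with 56.0% and 57.8% of genes above their own mean.

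**Figure D2:**
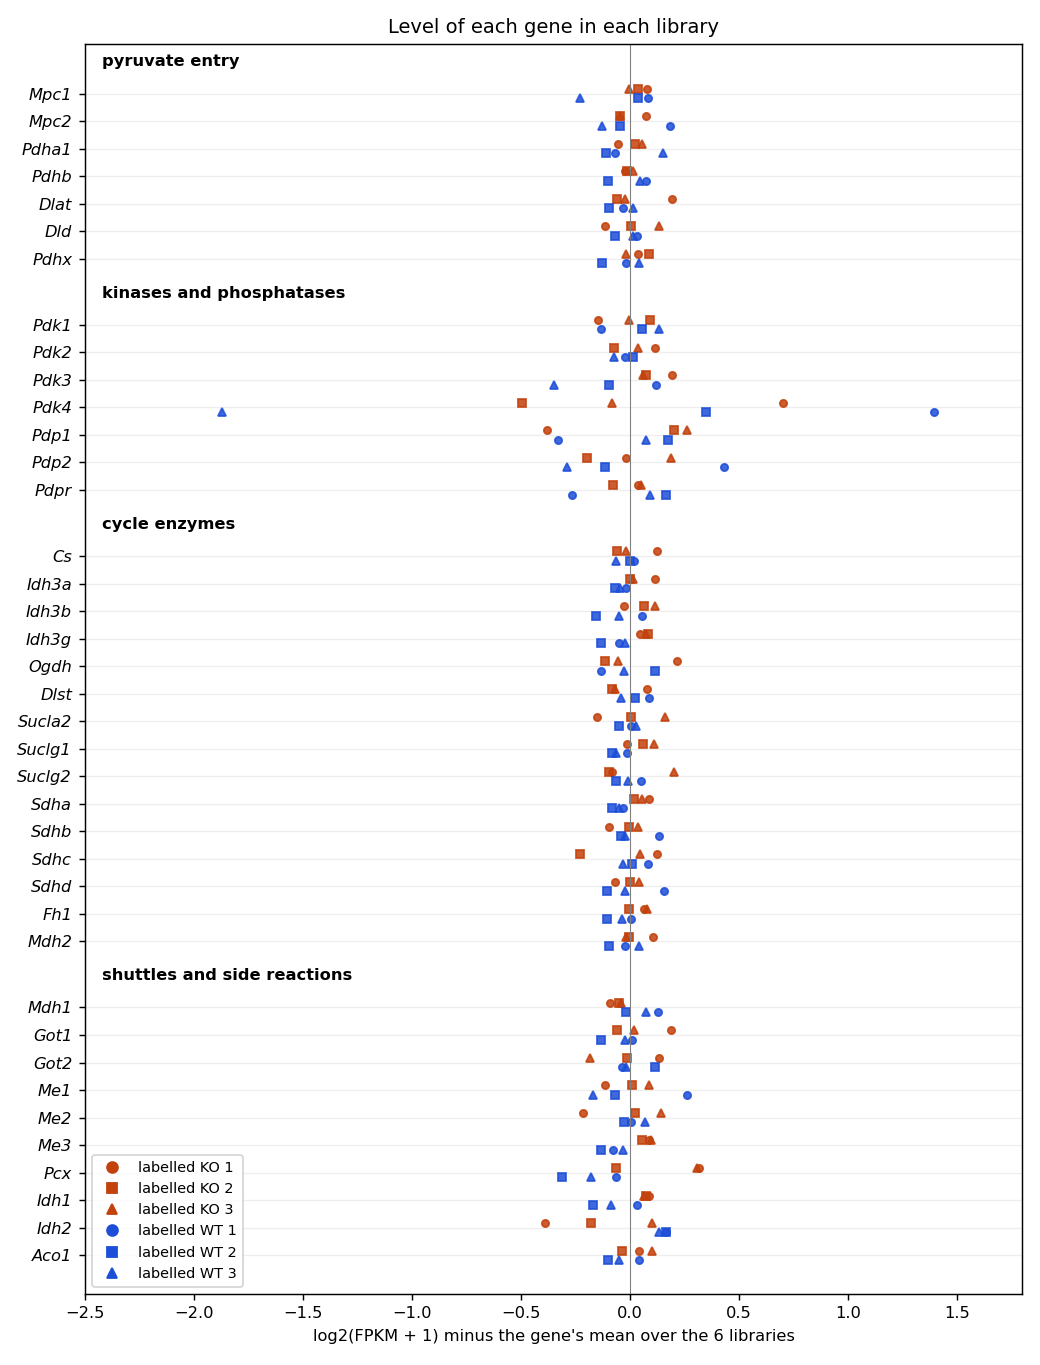
Level of each of the 39 genes in each of the 6 libraries, as log2(FPKM + 1) minus the gene's mean over the 6 libraries (horizontal axis), with KO-labelled libraries drawn above WT-labelled ones on each row and a symbol per replicate number. Most genes stay close to 0, and Pdk4 spans from its lowest value in WT-labelled library 3 to its highest in WT-labelled library 1.

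Pyruvate entry differed little between the labels. The group summed to 1309.0, 1296.5 and 1324.2 FPKM in KO-labelled libraries 1 to 3, against 1313.0, 1222.2 and 1339.5 FPKM in WT-labelled libraries 1 to 3. The WT-labelled sums reach both below and above the KO-labelled ones. Of its 7 genes 5 had a log2 difference above 0 and 2 below, between -0.02 and 0.08, and for 0 of the 7 were the groups apart. Pdha1, the catalytic subunit that the kinases phosphorylate and the most abundant of the group by FPKM, had 395, 418 and 427 FPKM in KO-labelled libraries, against 391, 381 and 457 FPKM in WT-labelled libraries. Its groups overlap, and its log2 difference was 0.02 (95% interval -0.19 to 0.22). Pdhb, which pairs with Pdha1 in the decarboxylating enzyme, lay at 250 to 257 FPKM in KO-labelled and 237 to 268 FPKM in WT-labelled libraries. The FPKM ratio of Pdha1 to Pdhb was 1.63 ± 0.0468 in KO-labelled and 1.6 ± 0.138 in WT-labelled libraries (SD, n = 3 each).

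The carrier and core subunits were similarly level. Mpc1 and Mpc2 together form the mitochondrial pyruvate carrier. Mpc1 had 46.8 to 49.7 FPKM in KO-labelled and 39.9 to 49.8 FPKM in WT-labelled libraries. Mpc2 had 139 to 151 FPKM in KO-labelled and 131 to 163 FPKM in WT-labelled libraries. Both overlap between the labels. Dlat, the acetyltransferase core of the complex, had 207 to 247 FPKM in KO-labelled and 202 to 218 FPKM in WT-labelled libraries (log2 difference 0.07). Dld, the lipoamide dehydrogenase that the pyruvate and oxoglutarate complexes share, had 160 to 190 FPKM in KO-labelled and 165 to 177 FPKM in WT-labelled libraries. Pdhx, which anchors Dld to the Dlat core, had 53.0 to 57.1 FPKM in KO-labelled and 49.1 to 55.4 FPKM in WT-labelled libraries. None of the upper 95% limits in this group exceeded that of Mpc1, 23.4% above WT-labelled, on the log2(FPKM + 1) scale.

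Among the kinases, Pdk4 varied between libraries of 1 label far more than the other tested members, and the labels did not separate it. Pdk4, the kinase that fasting and fatty acids are known to induce in muscle, lies on the minus strand of chr6:5483351-5496309 (GRCm38, which is mm10). It had 228, 98.7 and 132 FPKM in KO-labelled libraries 1, 2 and 3, against 369, 178 and 37.4 FPKM in WT-labelled libraries 1, 2 and 3. Both the highest and the lowest value belonged to WT-labelled libraries, with all KO-labelled values between them. These values rest on 1535 to 3299 fragments in KO-labelled and 493 to 5906 fragments in WT-labelled libraries, so counting error is small beside the range. Its SD within labels, 1.26 on the log2 scale, exceeded that of 99.8% of the tested genes. The log2 difference was 0.08 with SE 0.71 and a 95% interval of -1.55 to 1.71, which leaves room for a large change either way. It was -0.83 without WT-labelled library 3, 0.80 without WT-labelled library 1 and -0.25 without KO-labelled library 1.

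Pdk2, the most abundant kinase here by FPKM, was steady. It had 517, 453 and 489 FPKM in KO-labelled libraries, against 470, 482 and 454 FPKM in WT-labelled libraries, with a log2 difference of 0.05 (95% interval -0.12 to 0.23). Pdk1, which hypoxia is known to induce, had 43.5, 51.5 and 48.1 FPKM in KO-labelled libraries, against 44.0, 50.2 and 53.1 FPKM in WT-labelled libraries. Both genes overlap between the labels. Pdk3 was barely detected, with 11, 10 and 8 fragments (1.09, 0.923 and 0.909 FPKM) in KO-labelled libraries, against 11, 8 and 4 fragments (0.986, 0.71 and 0.436 FPKM) in WT-labelled libraries. The exact Poisson 95% intervals of these Pdk3 counts overlap, from 3.45 to 19.7 fragments in KO-labelled and 1.09 to 19.7 in WT-labelled libraries, and cover counting error only.

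The mix of kinases varied with Pdk4. Pdk4 made up 28.9%, 16.3% and 19.6% of the summed FPKM of the 4 kinases in KO-labelled libraries, against 41.7%, 25.1% and 6.87% in WT-labelled libraries. Pdk2 made up 65.5%, 75.0% and 73.0% in KO-labelled and 53.2%, 67.8% and 83.3% in WT-labelled libraries. The shares overlap between the labels, and Pdk2 was the larger of the pair in all 6 libraries by FPKM. The kinase sum ran over 605 to 790 FPKM in KO-labelled and 545 to 884 FPKM in WT-labelled libraries.

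The phosphatase side was split between an abundant and a scarce catalytic subunit. Pdp1, the calcium-stimulated phosphatase of muscle, had 34.6, 52.3 and 54.6 FPKM in KO-labelled libraries, against 35.9, 51.3 and 47.8 FPKM in WT-labelled libraries. Library 1 was the lowest under each label, and the replicate numbers are not known to pair the libraries. Pdp2, the other catalytic subunit, had 1.54, 1.24 and 1.93 FPKM in KO-labelled libraries, against 2.46, 1.37 and 1.1 FPKM in WT-labelled libraries. Pdpr, the regulatory subunit, had 48.7, 45.0 and 49.2 FPKM in KO-labelled libraries, against 39.3, 53.4 and 50.7 FPKM in WT-labelled libraries. All 3 overlap between the labels, with log2 differences of 0.06, -0.02 and 0.01 for Pdp1, Pdp2 and Pdpr. Pdp1 made up 95.7% to 97.7% of the catalytic phosphatase FPKM in KO-labelled and 93.6% to 97.7% in WT-labelled libraries.

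**Figure D3:**
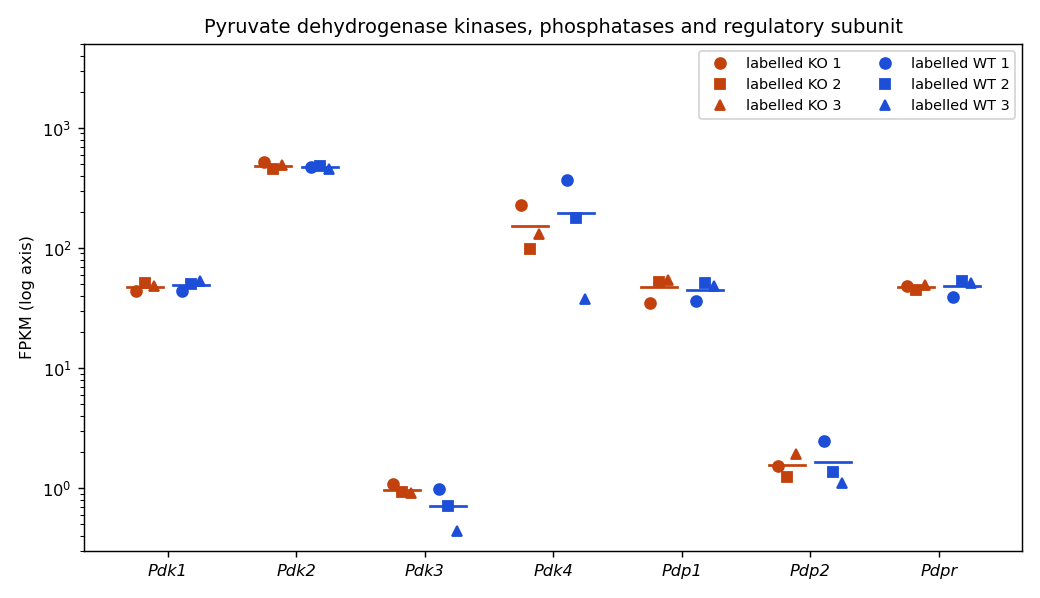
FPKM (logarithmic axis) of the 4 kinases, the 2 catalytic phosphatase subunits and the regulatory subunit in each library, KO-labelled left of WT-labelled, with bars at the mean of each label. The Pdk4 points of WT-labelled libraries reach from 37.4 to 369 FPKM, while Pdk2 stays between 453 and 517 FPKM.

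Other genes known to respond to fasting did not share a single direction between the labels. Of 16 such genes 14 were tested, 7 with a log2 difference above and 7 below 0, and 0 passed the test. Txnip, an inhibitor of glucose uptake, and Esrra, a nuclear receptor of mitochondrial genes, were the most abundant by FPKM, with log2 differences of 0.32 and 0.06. Ucp3, a mitochondrial carrier that rises with fatty acid supply and was chosen after its values were seen, had 75.1, 65.5 and 34.3 FPKM in KO-labelled libraries, against 104, 38.4 and 23.5 FPKM in WT-labelled libraries. Like Pdk4 it was highest in WT-labelled library 1 and lowest in WT-labelled library 3. Among the rest of the list only Foxo1, named after its values were seen, had both extremes there (4.02 and 2.14 FPKM). Txnip was highest in KO-labelled library 3 (374 FPKM) and Esrra in KO-labelled library 1 (189 FPKM). Klf15, a glucocorticoid-induced factor also chosen after its values were seen, had 22.8, 28.0 and 23.9 FPKM in KO-labelled libraries, against 22.4, 15.2 and 19.9 FPKM in WT-labelled libraries (unadjusted p = 0.0321 and adjusted p = 0.988, limma). Plin2, a lipid droplet coat protein chosen after its values were seen, had 34.8, 45.7 and 41.1 FPKM in KO-labelled libraries, against 49.4, 45.8 and 47.7 FPKM in WT-labelled libraries (unadjusted p = 0.0596 and adjusted p = 0.988, limma). The groups of Klf15 and Plin2 do not overlap, with Klf15 higher and Plin2 lower in KO-labelled libraries, and they are the 2 of the 14 tested genes that are apart. That is 7.14% each way, resting on a single gene, beside 3.84% higher and 5.64% lower of all tested genes. The sources used here do not give the feeding state at collection, and its part in these values was not tested.

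Most cycle enzymes had slightly higher means in KO-labelled libraries, without passing the test. Of 15 enzymes and subunits 11 had a log2 difference above 0 and 4 below, with a median of 0.03, and the groups were apart for 3, all higher under the knockout label, beside 3.84% higher and 5.64% lower of all tested genes. The summed level was 6449.8, 6256.3 and 6469.6 FPKM in KO-labelled libraries 1 to 3, against 6277.6, 5954.7 and 6158.7 FPKM in WT-labelled libraries 1 to 3. KO-labelled library 2 lies just under WT-labelled library 1, so the sums overlap. Sdha, the flavoprotein of succinate dehydrogenase, is the most abundant of them by FPKM and weighs on these sums most.

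Sdha (minus strand, chr13:74322254-74350280) had 1499.6, 1431.9 and 1467.1 FPKM in KO-labelled libraries, against 1382.7, 1333.3 and 1365.9 FPKM in WT-labelled libraries. All KO-labelled values are above all WT-labelled ones. The log2 difference was 0.11 (SE 0.07, 95% interval -0.05 to 0.26, unadjusted p = 0.152 and adjusted p = 0.988, limma), or 7.77%. Its SD within labels was 0.03, smaller than that of nearly all tested genes, of which 0.5% had a smaller one, without matching for level. The other subunits of the same complex did not share its direction. Sdhb, the iron-sulphur subunit, had 456 to 500 FPKM in KO-labelled and 474 to 535 FPKM in WT-labelled libraries. Sdhc and Sdhd, the membrane anchors, had 137 to 175 and 224 to 242 FPKM in KO-labelled and 157 to 170 and 218 to 262 FPKM in WT-labelled libraries. Their log2 differences were -0.05, -0.04 and -0.02 for Sdhb, Sdhc and Sdhd, and each of these turned to at or just above 0 after subtraction of library medians.

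The subunits of NAD-dependent isocitrate dehydrogenase, a control point of the cycle, all had higher means under the knockout label. Idh3g, a regulatory subunit, had 403, 413 and 411 FPKM in KO-labelled libraries, against 377, 356 and 384 FPKM in WT-labelled libraries, without overlap. Its log2 difference was 0.14 (SE 0.07, 95% interval -0.02 to 0.29, unadjusted p = 0.0819 and adjusted p = 0.988, limma). Idh3a, the catalytic subunit, had 324, 299 and 302 FPKM in KO-labelled libraries, against 295, 285 and 290 FPKM in WT-labelled libraries. These too do not overlap, and the log2 difference of 0.09 (adjusted p = 0.988, limma) was 0.05 without KO-labelled library 1. Idh3b, the other regulatory subunit, had 522, 556 and 576 FPKM in KO-labelled libraries, against 554, 478 and 514 FPKM in WT-labelled libraries, which overlap.

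The remaining enzymes of the cycle overlapped between the labels. Cs, which joins acetyl-CoA to oxaloacetate, had 243 to 276 FPKM in KO-labelled and 242 to 256 FPKM in WT-labelled libraries. Ogdh and Dlst, the decarboxylase and the transferase of the oxoglutarate complex, had log2 differences of 0.03 and -0.05. Ogdh was highest in KO-labelled library 1 at 378 FPKM, and the other 5 libraries lay between 297 and 352 FPKM. Suclg1, the subunit common to both succinyl-CoA ligases, had 253, 266 and 275 FPKM in KO-labelled libraries, against 253, 241 and 244 FPKM in WT-labelled libraries, with overlap at the lowest KO-labelled and the highest WT-labelled library only. Sucla2, the subunit that makes the ligase form ATP, and Suclg2, its GTP-forming counterpart, both had a log2 difference of 0.01. The FPKM ratio of Sucla2 to Suclg2 was 11.1 in the mean of either label, with SDs of 0.705 in KO-labelled and 0.337 in WT-labelled libraries (n = 3 each). Fh1, fumarase, had 256 to 271 FPKM in KO-labelled and 238 to 257 FPKM in WT-labelled libraries (log2 difference 0.10). Mdh2, the malate dehydrogenase of the matrix, had 951 to 1038.1 FPKM in KO-labelled and 901 to 992 FPKM in WT-labelled libraries (log2 difference 0.05).

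The shuttle and side reactions held the largest differences, in both directions. Of the 10 genes 5 had a log2 difference above 0 and 5 below, and the groups were apart for 2 each way, beside 3.84% higher and 5.64% lower of all tested genes. Idh2, the NADP-dependent isocitrate dehydrogenase of mitochondria, had 172, 199 and 242 FPKM in KO-labelled libraries, against 253, 253 and 247 FPKM in WT-labelled libraries. Every KO-labelled value is below every WT-labelled one, yet KO-labelled library 3 is close to them. The means were 204 ± 35.3 FPKM in KO-labelled and 251 ± 3.17 FPKM in WT-labelled libraries (SD, n = 3 each). The log2 difference was -0.31 (SE 0.12, 95% interval -0.58 to -0.04, unadjusted p = 0.029 and adjusted p = 0.988, limma), or -19.3%. Leaving out KO-labelled library 1 gave -0.19, and leaving out KO-labelled library 3 gave -0.44. Set against Idh3a, which uses the same substrate, the FPKM ratio was 0.531, 0.664 and 0.802 in KO-labelled and 0.859, 0.888 and 0.852 in WT-labelled libraries. Idh2 and Idh3a are each apart, in opposite directions, so this ratio must separate the labels and is no further evidence.

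Idh1, the cytosolic enzyme of the same NADP-dependent reaction, lay the other way. It had 30.6, 30.3 and 30.1 FPKM in KO-labelled libraries, against 29.4, 25.4 and 27.0 FPKM in WT-labelled libraries, without overlap. Its log2 difference was 0.15 (95% interval -0.04 to 0.35, unadjusted p = 0.109 and adjusted p = 0.988, limma). Me3, the mitochondrial NADP-dependent malic enzyme, also stood apart, with 31.3, 30.6 and 31.5 FPKM in KO-labelled libraries, against 27.8, 26.7 and 28.7 FPKM in WT-labelled libraries. Its log2 difference was 0.16 (SE 0.08, 95% interval -0.02 to 0.34, unadjusted p = 0.0701 and adjusted p = 0.988, limma). The other malic enzymes overlapped between the labels. Cytosolic Me1 had 69.3 to 79.9 FPKM in KO-labelled and 66.7 to 90.3 FPKM in WT-labelled libraries. Mitochondrial NAD-dependent Me2 was scarce, with 20 to 30 fragments in KO-labelled and 27 to 30 in WT-labelled libraries.

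Pcx, pyruvate carboxylase, which refills the cycle with oxaloacetate, had the largest log2 difference of the 38 genes in either direction. It had 19.7, 14.9 and 19.6 FPKM in KO-labelled libraries, against 14.9, 12.4 and 13.7 FPKM in WT-labelled libraries. KO-labelled library 2 falls just under WT-labelled library 1, so the groups overlap narrowly. The log2 difference was 0.37 (SE 0.13, 95% interval 0.08 to 0.67, unadjusted p = 0.0196 and adjusted p = 0.988, limma), or 29.6%. Leaving out single libraries gave 0.31 to 0.50, with adjusted p from 0.288 to 1.

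Of the shuttle enzymes, cytosolic Mdh1 was the one whose groups were apart. It had 991, 1021.2 and 1024.8 FPKM in KO-labelled libraries, against 1154.2, 1041.4 and 1111.1 FPKM in WT-labelled libraries. The log2 difference was -0.12 (SE 0.07, 95% interval -0.29 to 0.05, unadjusted p = 0.131 and adjusted p = 0.988, limma), and -0.06 after quantile normalization. The FPKM ratio of Mdh1 to matrix Mdh2 was 0.955, 1.06 and 1.08 in KO-labelled libraries, against 1.22, 1.16 and 1.12 in WT-labelled libraries. Got1 and Got2, the cytosolic and mitochondrial aspartate aminotransferases of the shuttle, had 483 to 575 and 311 to 388 FPKM in KO-labelled libraries, and 459 to 508 and 345 to 383 FPKM in WT-labelled libraries. Both overlap, with log2 differences of 0.10 and -0.04. Aco1, the cytosolic aconitase that also acts as an iron sensor, had 17.3 to 19.1 FPKM in KO-labelled and 16.5 to 18.3 FPKM in WT-labelled libraries.

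**Figure D4:**
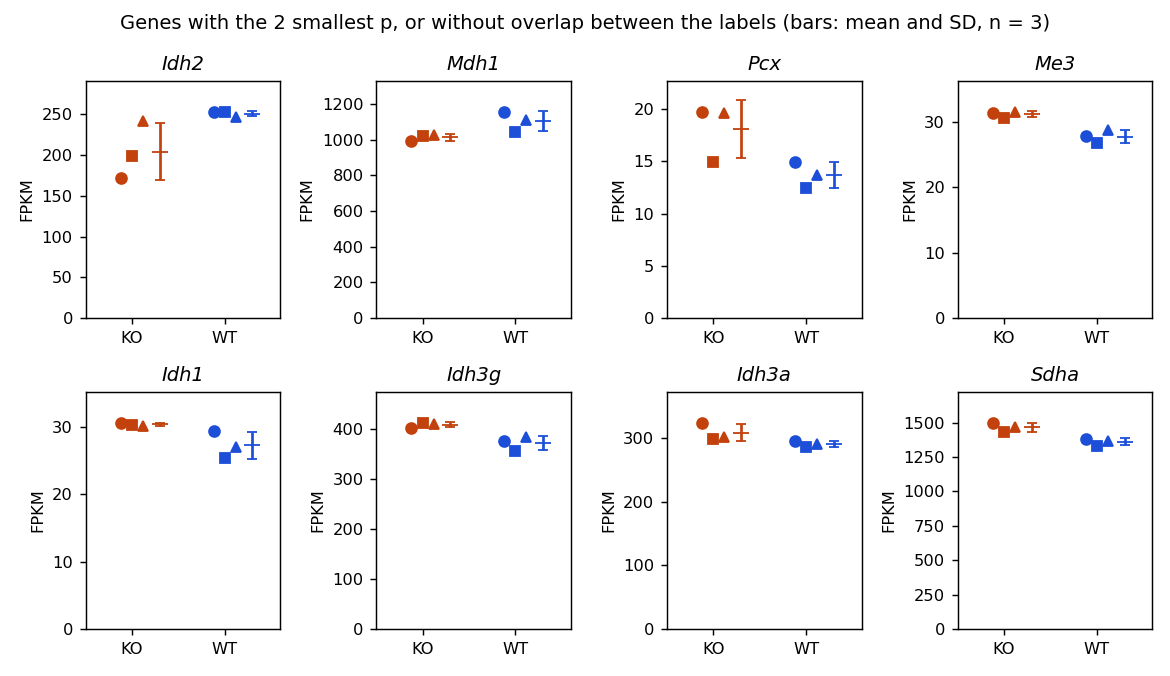
FPKM of the 7 genes whose labels do not overlap and of Pcx, in 3 KO-labelled (left) and 3 WT-labelled (right) libraries, each axis from 0, with the mean and SD beside the points. Idh2 and Mdh1 lie lower in KO-labelled libraries and the others higher, and 0 of the 8 passed the adjusted test.

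Most of these genes scattered little between libraries of 1 label. The median SD within labels was 0.104 on the log2 scale for the 38 tested genes, beside 0.154 over all tested genes. These medians are not matched for level. The median tested gene lay at 3.24 to 3.33 on the log2(FPKM + 1) scale across the libraries, lower than most of the 38. Of the 39 genes 33 varied less than 1.5-fold between the highest and the lowest of the 6 libraries, and 3 varied more than 2-fold. Those 3 were Pdk4, Pdk3 and Pdp2, all regulators of the complex and, except for Pdk4, scarce. At least 200 fragments stood behind 36 of the 39 genes in every library.

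**Figure D5:**
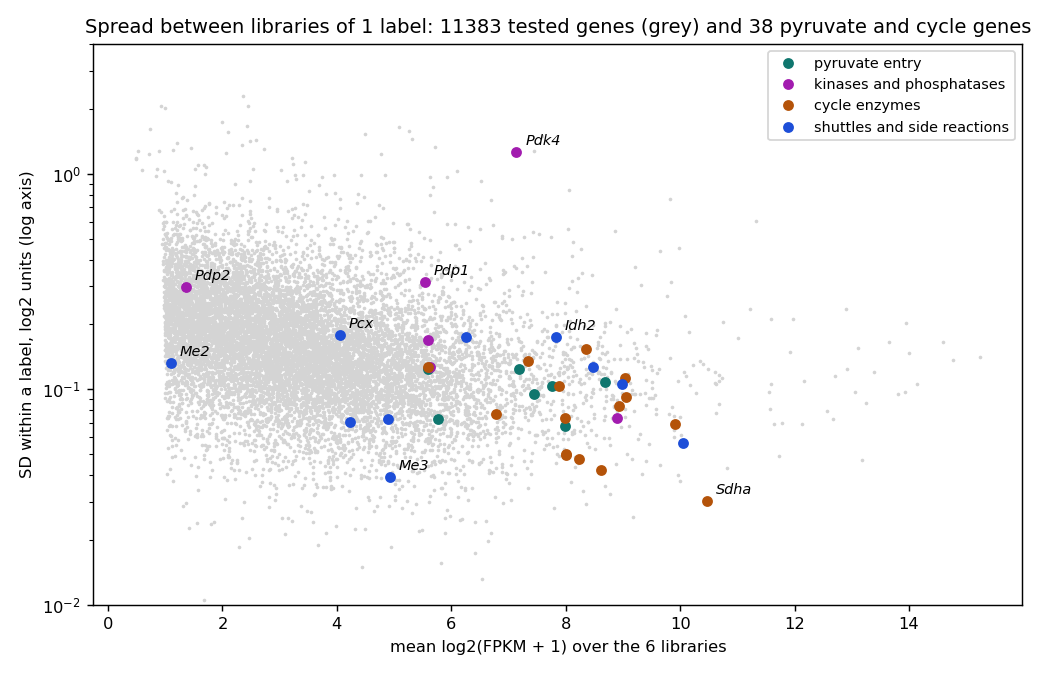
SD within a label (logarithmic axis) against the mean log2(FPKM + 1) over the 6 libraries, for all 11383 tested genes in grey and for the 38 tested genes in colour by role. Pdk4 lies above nearly all genes of its level with 1.26, and Sdha near the lower edge with 0.03.

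Genes that serve the same pathway gave a like split. In 4 lists of lipoylation and succinate dehydrogenase assembly, sister dehydrogenases, carriers, and pyruvate and lactate handling, 35 of 38 genes were tested, 23 had a log2 difference above 0 and 12 below, and 0 passed the test. Glrx5 and Isca1, which help build iron-sulphur clusters, had log2 differences of 0.00 and 0.12. Oxct1, which activates ketone bodies, and Bckdk, the kinase of the branched-chain dehydrogenase, had -0.02 and -0.08. These 4 overlap between the labels. Of the 35 tested genes 4 were apart and higher in KO-labelled libraries and 1 was apart and lower, beside 3.84% and 5.64% of all tested genes. Those higher were Slc25a12 and, chosen after their values were seen, Sdhaf3 and Sdhaf4, assembly factors of succinate dehydrogenase, and Bckdha, a subunit of the branched-chain dehydrogenase. The log2 differences of Sdhaf3, Sdhaf4 and Bckdha were 0.14, 0.22 and 0.20, with unadjusted p of 0.24, 0.0554 and 0.0517 and adjusted p of 0.988 for each (limma). The gene apart and lower was Ldhb.

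Slc25a12, the aspartate-glutamate carrier of the malate-aspartate shuttle, was apart. It had 402, 377 and 397 FPKM in KO-labelled libraries, against 344, 327 and 352 FPKM in WT-labelled libraries, a log2 difference of 0.20 (unadjusted p = 0.0205 and adjusted p = 0.988, limma). Its partner Slc25a11, the oxoglutarate-malate carrier, averaged 416 FPKM under either label (SDs of 21.7 in KO-labelled and 35.1 in WT-labelled libraries, n = 3 each). Ldha, the main lactate dehydrogenase of fast muscle, and Pkm, pyruvate kinase, had log2 differences of 0.01 and 0.06. Ldhb, the lactate dehydrogenase of oxidative tissue, chosen after its values were seen, had 228, 240 and 234 FPKM in KO-labelled libraries, against 268, 248 and 277 FPKM in WT-labelled libraries (unadjusted p = 0.0434 and adjusted p = 0.988, limma). Every KO-labelled value of Ldhb is below every WT-labelled one.

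Markers of oxidative fibres, adipocytes, fibroblasts, endothelium and leukocytes had lower means in KO-labelled libraries, without passing the test. This held for 7 of 7 slow and type IIa fibre genes, beside 6450 of all 11383 tested genes with a log2 difference below 0. Of the 7, 4 had an unadjusted p under 0.05, beside 3.31% of all tested genes lower at that threshold, and 0 passed the adjusted test. Their summed level was 1029.6, 1048.4 and 359 FPKM in KO-labelled libraries, against 1112.7, 1825.9 and 1371.4 FPKM in WT-labelled libraries, and type IIa myosin Myh2 makes up most of it. The same backgrounds, 6450 of 11383 and 3.31%, apply to the adipocyte, fibroblast, endothelial and leukocyte lists. Adipocyte markers had negative log2 differences for 6 of 6 genes, 3 with an unadjusted p under 0.05 (summed 86.7 to 101 FPKM in KO-labelled and 100 to 145 FPKM in WT-labelled libraries). Fibroblast markers did so for 5 of 5, 1 with an unadjusted p under 0.05 (173 to 244 FPKM in KO-labelled and 172 to 351 FPKM in WT-labelled libraries). Endothelial markers did so for 4 of 4, 0 with an unadjusted p under 0.05 (93.4 to 111 FPKM in KO-labelled and 78.8 to 128 FPKM in WT-labelled libraries). Of 4 leukocyte markers the 2 tested did so, 0 with an unadjusted p under 0.05 (2.46 to 3.51 FPKM summed over the 4 in KO-labelled and 1.96 to 6.62 FPKM in WT-labelled libraries). Of the 2 heart muscle genes, Myh6 lay the other way. It had 3.58, 3.82 and 3.95 FPKM in KO-labelled libraries, against 2.57, 3.2 and 3.35 FPKM in WT-labelled libraries. Its log2 difference was 0.25 (unadjusted p = 0.0855 and adjusted p = 0.988, limma). Nppa was not tested, with 0 to 2 fragments in KO-labelled and 0 to 1 in WT-labelled libraries. Among KO-labelled libraries, library 3 was lowest in Myh2 (297 FPKM, against 987 and 973 FPKM in libraries 1 and 2). Library 2 was lowest in Atp2a2 (10.4 FPKM). Library 1, with the least Idh2, was lowest in Myh7 (22 to 28 fragments under this label), Myl2, Tnnt1, Tnnc1 and Tnni1. In WT-labelled library 3 Tnnt1, Tnnc1 and Tnni1 (6.24, 3.28 and 2.35 FPKM) lay within or below the KO-labelled range, while Idh2 was 247 FPKM. Its Myh7, Myl2, Myh2 and Atp2a2 were above every KO-labelled value. The part of these cell types in the values of Idh2, Mdh1, Ldhb and the other genes was not tested.

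The promoters of these genes were mostly rich in CG. For 35 of the 39 genes RefSeq (GRCm38.p6) gave the bases from 250 before to 50 after the start. Only the 250 bases before the start were searched, and a gene counted once if any of its promoters matched. The letters GGGCGG, the box of Sp1-family factors, occurred on either strand in 23 of the 35 (65.7%), beside 35.4% of all 27025 genes with a promoter. CCAAT, the box of NF-Y, occurred in 21 (60.0%), beside 37.5%. TATAAA occurred in 1 (2.9%), Got2, beside 14.3%. AAGGTCA, the element of the nuclear receptor Esrra, occurred in 1 (2.9%), Got1, beside 4.7%. Other motifs searched were CCGGAAG (8.6% beside 7.8%) and GCATGCGC (5.7% beside 2.6%). The median C and G content of these bases, from the highest value of each gene, was 62.4%, beside 52.8% for all genes with a promoter. The part of this composition in the GGGCGG share was not tested. A match describes letters and not binding. The 250 bases before the RefSeq start are shown for Pdk4, the most variable of the 38 genes, for Idh2, the lowest relative to WT-labelled libraries, and for Sdha, the steadiest. They read 5′ to 3′ on the gene's own strand (minus for all 3), with capitals marking matches of the Sp1 and NF-Y boxes. A GC box on the other strand reads CCGCCC here. A CCAAT box on the other strand likewise reads ATTGG. Their places are chr6:5496279-5496528 for Pdk4, chr7:80115351-80115600 for Idh2 and chr13:74350241-74350490 for Sdha.
Pdk4: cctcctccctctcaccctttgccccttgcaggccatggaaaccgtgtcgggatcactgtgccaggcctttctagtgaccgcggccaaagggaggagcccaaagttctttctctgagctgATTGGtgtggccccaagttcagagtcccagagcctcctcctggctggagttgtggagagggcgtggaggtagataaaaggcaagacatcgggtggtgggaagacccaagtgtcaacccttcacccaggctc
Idh2: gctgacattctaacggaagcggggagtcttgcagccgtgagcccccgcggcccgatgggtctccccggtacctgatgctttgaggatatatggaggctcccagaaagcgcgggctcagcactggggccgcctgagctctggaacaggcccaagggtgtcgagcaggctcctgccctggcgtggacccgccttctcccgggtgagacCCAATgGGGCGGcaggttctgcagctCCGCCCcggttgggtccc
Sdha: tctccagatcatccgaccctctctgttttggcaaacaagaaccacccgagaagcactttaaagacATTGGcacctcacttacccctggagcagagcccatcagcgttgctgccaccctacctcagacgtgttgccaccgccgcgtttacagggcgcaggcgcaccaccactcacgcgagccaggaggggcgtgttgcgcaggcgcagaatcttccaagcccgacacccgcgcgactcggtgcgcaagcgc
The Idh2 stretch holds 2 GC boxes and 1 CCAAT box. Those of Pdk4 and Sdha hold 1 CCAAT box and 0 GC boxes, and they differ in CG pairs, 6 in Pdk4 and 21 in Sdha.

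Orders of level between genes depend on the lengths behind FPKM. The length implied by the FPKM was shorter than the longest annotated transcript for 38 of the 39 genes, and equalled an annotated transcript for 1, Idh3a. For Sdha it was 747 bases, beside 2900 for its longest transcript. By FPKM the order ran Sdha, Mdh1, Mdh2 (1413.4, 1057.3 and 965 FPKM over the 6 libraries). Rescaled to the longest transcript it ran Mdh2, Mdh1, Sdhb, Sdha (565, 488, 455 and 364 FPKM). Differences between the labels within a gene are not touched by its length. Some values may hold reads of near copies: over 10% of 50-base words were shared with other genes for Mpc1, Pdhb, Suclg2, Got2 and Me1. Exons of 8 genes (Mpc1, Pdha1, Pdpr, Idh3b, Mdh1, Got2, Me1 and Me3) overlap a gene on the other strand, and since the sources used here do not give the use of strand in counting, those values are uncertain.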

How the data were processed

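Total RNA of 6 tibialis anterior samples was sequenced, and the authors deposited 1 table of FPKM per library. The submitters' processing notes name Cufflinks 2.2.1, TopHat2 2.1.1 and build mm10, with the role of each, the annotation and strand use not given in the sources used here. Sample titles gave the groups and replicate numbers. The gene members, lists and tests were chosen with earlier results of these data known. Genes were matched by Ensembl ID, and 40452 of 41025 IDs had a symbol.

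The deposited FPKM were taken to log2(FPKM + 1), and genes averaging at least 1 FPKM were tested (limma 3.58.1, R 4.3.3, mean-variance trend, no block, Benjamini-Hochberg over 11383 genes). Differences on that scale understate changes of scarce genes. For all 23559 genes above 0 in a library, 1 whole gene length turned the FPKM into whole fragments within 0.002 of a fragment, so fragments were recovered, and 1 fragment on 1 kb was worth 0.0921 to 0.118 FPKM. limma voom on these fragments was an alternative, and the test was tested on simulated data. Each pair of libraries differed beyond sampling noise (chi-square over genes with at least 20 fragments). Positions, exons and 50-base words came from a GENCODE annotation of GRCm38 and promoters from RefSeq. All genes of the group are named, those with the smallest p or no overlap with 6 values, and from other lists the 2 most abundant. The fibre markers and the slow and type IIa markers are all named, and adipocyte, fibroblast, endothelial and leukocyte markers are given by list. Where another gene falls outside this rule, the text says so.

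Alternatives were 2 scalings, a pseudocount of 0.1, no filter, the replicate number as a block, voom, and each library left out. Software was numpy 2.4.6, pandas 2.3.3 and matplotlib 3.10.9 in Python 3.11.15.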

Additional observations from a re-analysis of the deposited data

How the results depend on the processing

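Of the 38 tested genes 0 passed the adjusted test in limma under any setting run, and over all tested genes the count was 0 except when single libraries were left out, where it ran from 0 to 3 (1 without KO-labelled library 3, 1 without WT-labelled library 1 and 3 without WT-labelled library 3). With the replicate block the counts stayed 0 over all tested genes and over these genes, and the smallest adjusted p of the group was 0.993. The correlation of deviations between libraries of the same number was 0.02, -0.04 and 0.02. These values show no strong shared deviation but cannot settle pairing, and the numbers are not known to pair the libraries. The direction of 17 genes held in every setting, among them Idh2, Mdh1, Pcx, Me3, Idh1, Idh3a, Idh3g and Sdha, and that of 21 turned in at least 1. Neither the replicate block nor dropping the filter can change a log2 difference. Leaving out a library cannot turn the direction of a gene whose groups do not overlap, as for all of those named except Pcx. A direction held under those settings therefore adds no support for such genes. Values that turned to 0 or above after subtraction of library medians were 0.037 for Mpc2, 0.032 for Pdhb, 0.007 for Pdk1, 0.029 for Pdp2, 0.001 for Sdhb, 0.006 for Sdhc, 0.029 for Sdhd, 0.005 for Got2, 0.034 for Me1 and 0.015 for Me2. After quantile normalization they were 0 for Mpc2, 0.03 for Pdhb, 0.037 for Pdp2, 0.031 for Sdhd, 0.009 for Got2, 0.01 for Me1 and 0.017 for Me2, and with voom 0.014 for Mpc2, 0.009 for Pdhb, 0.007 for Sdhd and 0.01 for Me1. With 1 library left out, log2 differences ran from -0.022 to 0.135 for Mpc1, -0.076 to 0.08 for Mpc2, -0.033 to 0.098 for Pdha1, -0.069 to 0.018 for Pdhb, -0.004 to 0.121 for Dlat, -0.046 to 0.078 for Dld, -0.114 to 0.023 for Pdk1, -0.832 to 0.802 for Pdk4, -0.096 to 0.259 for Pdp1, -0.166 to 0.192 for Pdp2 and -0.126 to 0.089 for Pdpr. They ran from -0.021 to 0.071 for Cs, -0.072 to 0.094 for Ogdh, -0.067 to 0.088 for Sucla2, -0.085 to 0.065 for Suclg2, -0.079 to 0.008 for Sdhb, -0.111 to 0.063 for Sdhc, -0.077 to 0.056 for Sdhd, -0.119 to 0.039 for Got2, -0.102 to 0.114 for Me1 and -0.109 to 0.066 for Me2. The cause of these turns was not tested. With 3 libraries a label, the 95% intervals leave room for moderate differences in most genes, and depth limits Pdk3, Me2 and Pdp2.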
